A study of Bos taurus with 81 samples.

Results

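Acetylation of histone H3 at lysine 27 (H3K27ac) was compared between the inner cell mass (ICM) and the trophectoderm (TE) of in vitro produced bovine blastocysts. The comparison rests on 4 of the 81 libraries of the series, 2 of ICM and 2 of TE, all read from their titles. The other libraries cover H3K4me3, H3K27ac, H3K27me3 and H3K9me3 from the germinal vesicle oocyte to the blastocyst, and chromatin accessibility (ATAC-seq) of blastocyst, ICM and TE. Of these, 43 were used here as readouts that had no part in choosing the H3K27ac bins. ICM came from blastocysts whose outer cells had been lysed with an antibody against bovine serum and guinea pig complement, whereas TE was cut off blastocysts with a micro scalpel, so lineage and way of isolation cannot be told apart. Germinal vesicle oocytes (GV) were taken before maturation, and embryos at the 2-cell (2C, 32 h after insemination), 4-cell (4C, 44 h), 8-cell (8C, 56 h), morula (MO, 122 h) and blastocyst (BL, 172 h) stages. None of these embryos had received the transcription inhibitor used elsewhere in the series. Each library was made from about 500 oocytes or 1000 to 1500 blastomeres. The labels do not say whether replicates came from separate pools of embryos, so p-values measure only the spread between these libraries, which may be technical.

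H3K27ac is deposited by acetyltransferases at active promoters and enhancers, and the same lysine cannot carry it together with H3K27me3, the mark of Polycomb repression. H3K4me3 is found mainly at promoters, H3K9me3 at heterochromatin and repeats. The ICM gives rise to the embryo proper and the hypoblast, and the TE to the fetal part of the placenta. Histone marks were measured by CUT&Tag, in which an antibody directs a transposase to the mark so that nearby DNA is tagged. Accessible DNA was measured by ATAC-seq, in which a transposase cuts open chromatin without an antibody. The deposited data were lists of peaks, 1 per library, so every value here is about whether a place lies in a called peak and not about how strong the signal is. Positions refer to the ARS-UCD1.2 assembly. The gene table at hand was of another assembly, so genes were not assigned to regions and the lineage labels were not checked against marker genes.

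ICM lists covered more of the autosomes than TE lists. On chromosomes 1 to 29, ICM replicate 1 held 84124 peaks over 98.2 Mb and ICM replicate 2 held 78484 peaks over 91.3 Mb. TE replicate 1 held 65712 peaks over 57.5 Mb and TE replicate 2 held 67673 peaks over 60.3 Mb. Both ICM lists were longer than both TE lists, and the log2 ratio of mean covered length was 0.69. The exact two-sided permutation test gave p = 0.333, the smallest p that 2 libraries against 2 allow. Sequencing depth was unknown, since the lists give no library totals. A rough stand-in, the lowest score per 200 bp of peak (1st percentile within a list), was 8.38 and 8.27 in ICM and 7.11 and 7.14 in TE. This floor moved with list length, and its part in the difference was not tested.

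ICM peaks were also wider. Their median width was 800 bp in both replicates, against 550 and 600 bp in TE. Peaks of at least 5 kb held 10.0% and 9.70% of the covered length in ICM, and 6.34% and 6.20% in TE. When the peaks of all 4 lists were merged into 106961 regions, 24724 of these held a peak of every library. Within these common regions the median covered length was 1700 and 1600 bp in the ICM libraries and 1150 and 1200 bp in the TE libraries. The covered length was greater in both ICM libraries than in both TE libraries at 58.2% of common regions, and greater in both TE libraries at 14.4%. Each of the other ways of setting 2 of the 4 libraries above the rest held at most 6.65%.

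Replicates resembled each other more than they resembled the other lineage. The Jaccard index, the bases covered by both of 2 lists divided by those covered by either, was 0.660 between the ICM replicates and 0.626 between the TE replicates. Across lineages it lay between 0.335 and 0.344. The difference of 0.30 between the mean index within and across lineages had an exact one-sided permutation p of 0.333, the smallest that 3 groupings of 4 libraries allow.

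The autosomes were then divided into 2488110 bins of 1 kb, and a bin was called marked where peaks covered at least 50% of it. In all, 138120 bins were marked in at least 1 of the 4 libraries. Bins marked in all 4 libraries, called shared, numbered 31935 (1.28% of autosomal bins). Bins marked in both ICM libraries and neither TE library, called ICM-only, numbered 37983 (1.53%). Bins marked in both TE libraries and neither ICM library, called TE-only, numbered 11119 (0.447%). The remaining 57083 marked bins followed none of these patterns. In all, 49102 bins separated the lineages. When each ICM library was instead paired with a TE library, the bins marked in both libraries of one pair and neither of the other numbered at most 1469. Of the bins that separated the lineages, 77.4% were ICM-only, a ratio of 3.42. The ICM lists were also the longer ones, and the excess cannot be told apart from list length. When all 4 lists were cut by peak score to one length, 58.5 Mb over the autosomes and X, 17361 bins were ICM-only and 16918 TE-only, so the ICM share was 50.6%. Ranking peaks by score per base gave 17405 and 17084 bins. Equal totals by themselves bring these counts close together, so the cut lists say nothing about the excess.

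**Figure D1:**
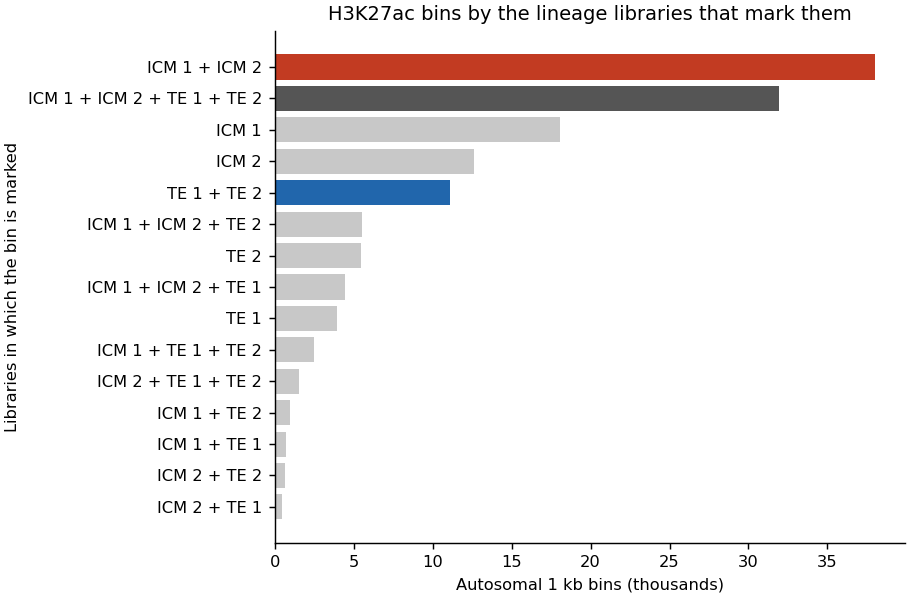
Number of autosomal 1 kb bins (x axis, in units of 1000) for every combination of the 4 H3K27ac lineage libraries that marks them (y axis). The coloured bars are the ICM-only (37983), TE-only (11119) and shared (31935) bins, and the bars that pair 1 ICM with 1 TE library are the shortest.

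In most lineage-specific bins the other lineage had no peak cover at all. The bins were chosen for cover below 50% there, so low cover is in part given by the rule. Peak cover also does not tell how near the signal was to the authors' cutoff. No base was covered in either library of the other lineage in 65.4% of ICM-only and 73.8% of TE-only bins. The median of the lower of both covers in the own lineage was 70% of the bin in either class. Just inside the threshold, 4709 ICM-only and 1428 TE-only bins had a lower cover of exactly 50%. Just outside it, 5092 and 1615 bins would have joined had 45% been enough in the own lineage, with the limit for the other lineage kept. In 2210 ICM-only and 599 TE-only bins the higher cover in the other lineage was 45%.

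Lineage differences called from 1 library of each lineage mostly recurred in the libraries that had not been used. Of bins marked in one ICM library and not in one TE library, 69.3% to 76.6% were marked in the other ICM library and 8.49% to 11.0% in the other TE library, over the 4 choices of libraries. Of bins marked in one TE library and not in one ICM library, 67.3% to 74.5% were marked in the other TE library and 11.9% to 17.7% in the other ICM library. By library, 78.2% to 83.9% of marked bins were marked in the replicate of the same lineage. The overlap with the other lineage was unequal, as a shorter list can lie within a longer one. Both TE libraries marked 33.7% and 35.2% of the bins of the ICM libraries, and both ICM libraries marked 64.2% and 62.7% of the bins of the TE libraries.

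The ICM excess varied between chromosomes. ICM-only bins were 62.0% of the separated bins on chromosome 24, with 610 ICM-only and 374 TE-only bins, and 85.7% on chromosome 7, with 2266 and 378. The median over the 29 autosomes was 76.7%, and every autosome had more ICM-only than TE-only bins.

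Lineage-specific bins lay in shorter runs than shared bins. Bins of 1 class that touch were joined into runs. The ICM-only bins formed 25272 runs and the TE-only bins 7382 runs. Runs of a single bin held 47.7% of ICM-only, 46.0% of TE-only and 28.6% of shared bins. Runs of at least 5 kb held 10.8% of ICM-only bins in 641 runs, 8.38% of TE-only bins in 156 runs and 23.6% of shared bins in 1034 runs. The longest run was 24 kb for ICM-only, 13 kb for TE-only and 34 kb for shared bins. The order of ICM-only and TE-only reversed in lists cut to one length by score, where runs of at least 5 kb held 10.4% of ICM-only and 12.5% of TE-only bins.

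**Figure D2:**
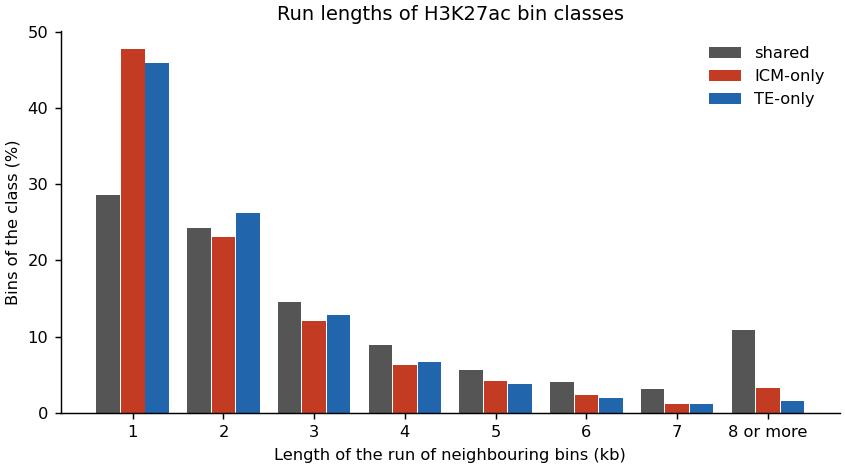
Share of the bins of each class (y axis, %) that lie in runs of a given length (x axis, kb). Single-bin runs hold 47.7% of ICM-only and 46.0% of TE-only bins against 28.6% of shared bins, and runs of at least 5 kb hold 23.6% of shared bins.

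Bins of a class lay near others of the class, and near shared bins, more often than autosomal bins did in general. Another bin of the same class was found within 10 kb for 82.4% of ICM-only and 75.8% of TE-only bins, against 12.7% and 4.49% of all autosomal bins that lay as near to a bin of that class. Touching bins count here, so 1 peak over several bins is enough. Only 47.7% of ICM-only and 46.0% of TE-only bins had no touching bin of their class. The part of peak width in the contrast was not tested. A shared bin touched 16.4% of ICM-only and 14.7% of TE-only bins, and lay within 10 kb of 52.5% and 45.7%. Of all autosomal bins 2.15% touched a shared bin and 9.73% lay within 10 kb of one. A bin of the opposite lineage class lay within 10 kb of 3.86% of ICM-only and 11.6% of TE-only bins. The shares of all autosomal bins that lay as near to a TE-only or an ICM-only bin were 4.49% and 12.7%, slightly above these.

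Peaks that touched no peak of the other lineage were narrower and lower in score than those that did. They made up 51.1% and 49.3% of the peaks of the ICM libraries and 29.6% and 31.4% of those of the TE libraries. Their median width was 650 bp in both ICM libraries, against 1100 and 1050 bp for ICM peaks that overlapped a TE peak. In both TE libraries it was 450 bp, against 650 bp for TE peaks that overlapped an ICM peak. In each of the 4 libraries the peaks free of the other lineage were the narrower ones. A wider peak can more easily touch another, and the part of this in the difference was not tested. By score within a list, the median percentile of free peaks was 34.9 and 35.3 in ICM, against 69.4 and 68.7 for overlapping peaks. In TE it was 36.3 and 35.6, against 56.7 and 57.2.

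Accessibility followed the H3K27ac classes. ATAC-seq peaks marked 39.1%, 49.2% and 39.7% of ICM-only bins in the 3 ICM libraries, and 23.2%, 27.9% and 21.7% in the 3 TE libraries. TE-only bins were marked in 8.30%, 12.7% and 7.91% by the ICM libraries and in 50.8%, 58.4% and 50.1% by the TE libraries. For both classes the libraries of the own lineage all lay above those of the other lineage, with no overlap. Shared bins were open in 66.9% to 74.0% by ICM libraries and 73.7% to 79.6% by TE libraries, while 2.89% to 3.99% of all autosomal bins were marked in these 6 libraries. The log2 ratio of the ICM-only to the TE-only share was 2.17 ± 0.20 (SD, n = 3) in ICM and -1.13 ± 0.07 (SD, n = 3) in TE. Whole blastocysts lay between, at 0.17 ± 0.07 (SD, n = 3).

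H3K4me3 separated the classes in ICM libraries more than in TE libraries. ICM-only bins carried it in 19.7% and 19.8% by the ICM libraries, and still in 16.5% and 16.2% by the TE libraries. TE-only bins carried it in 2.42% and 2.81% by the ICM libraries and in 18.7% and 16.4% by the TE libraries. The ICM level of TE-only bins thus stood near the 1.56% and 1.59% of all autosomal bins. Shared bins carried H3K4me3 in 50.4% and 50.9% by ICM libraries and in 61.0% and 59.2% by TE libraries. The log2 ratio of ICM-only to TE-only shares was 2.92 ± 0.14 (SD, n = 2) in ICM and -0.10 ± 0.11 (SD, n = 2) in TE. In whole blastocysts it was 0.42 ± 0.04 (SD, n = 2).

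The difference of these ratios between ICM and TE libraries was tested over libraries. The ratio is taken within a library but was not free of list length: in the BL libraries, ATAC lists of 80.8, 103 and 117 Mb gave 0.24, 0.15 and 0.11. Summed over ATAC and H3K4me3 it was 6.33 on the log2 scale, with every ICM library above every TE library in both assays. The exact two-sided permutation p was 0.0167, the smallest that 120 arrangements allow, and 0.1 after Benjamini-Hochberg adjustment over the 6 tests of this family. ATAC alone gave 3.31 with an exact permutation p of 0.1 (adjusted 0.2), and H3K4me3 alone 3.02 with p = 0.333 (adjusted 0.333), each the smallest its design allows. No test of the family could be called at 0.05 after adjustment. With only the H3K27ac lists of ICM and TE cut to equal length by score, the sum was 4.83, with the same exact permutation p of 0.0167. That cut changed the classes and left the ATAC and H3K4me3 lists whole. The part of the ATAC and H3K4me3 list lengths in the sum was not tested.

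H3K27me3 had the opposite pattern. TE-only bins were marked in 9.96% and 9.94% by the ICM libraries and in 1.23% and 1.39% by the TE libraries. ICM-only bins were marked in 1.57% and 1.48% by the ICM libraries and in 5.51% and 5.51% by the TE libraries. The replicates of a lineage lay close together and the lineages did not overlap for either class. The level of TE-only bins in ICM was close to that of all autosomal bins, 9.87% and 9.89%, and the other levels were lower than in all bins. Shared bins were marked in 0.55% to 1.09% over these 4 libraries. The log2 ratio of ICM-only to TE-only shares was -2.71 ± 0.05 (SD, n = 2) in ICM and 2.07 ± 0.13 (SD, n = 2) in TE.

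H3K9me3 differed little between the classes. ICM-only bins were marked in 2.12% and 3.63% by ICM libraries and in 1.86% ± 0.08 (SD, n = 2) by TE libraries. TE-only bins were marked in 3.09% and 4.49% by ICM and in 2.11% and 1.73% by TE libraries. All of these lay below the share of all autosomal bins in the same library, 3.88% to 6.20%. For both repressive marks together the ratio in ICM libraries was lower than in TE libraries by a log2 difference of -5.16, of which H3K27me3 made -4.78 and H3K9me3 -0.39. The exact two-sided permutation p of the sum was 0.0556, the smallest of 36 arrangements (adjusted 0.167). For either mark alone the exact permutation p was 0.333 (adjusted 0.333).

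**Figure D3:**
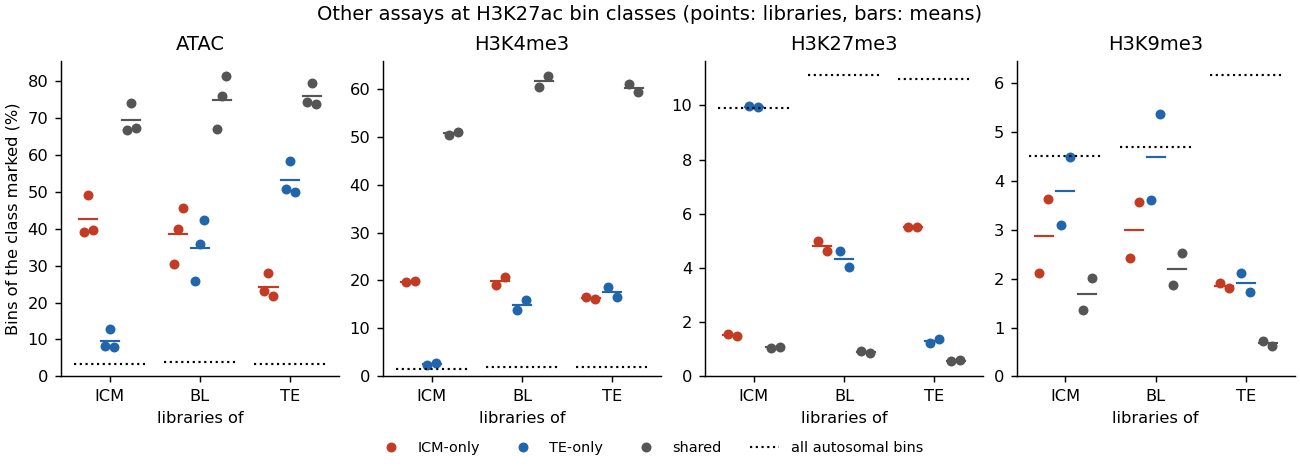
Share of ICM-only, TE-only and shared H3K27ac bins (y axis, %) marked by ATAC, H3K4me3, H3K27me3 and H3K9me3 peaks in libraries of ICM, BL and TE (x axis). Points are libraries, bars are means and dotted lines are the mean share of all autosomal bins; ATAC marks 39.1% to 49.2% of ICM-only bins in ICM and 50.1% to 58.4% of TE-only bins in TE.

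Combinations of the assays divided the lineage-specific bins by type. Bins open in all 3 ATAC libraries of the own lineage made up 31.2% of ICM-only bins (2.21% of all autosomal bins in ICM) and 39.3% of TE-only bins (2.31% in TE). Open bins without H3K4me3 in either library of that lineage, the combination typical of distal elements, made up 19.0% of ICM-only and 25.4% of TE-only bins, against 1.1% and 1.02% of autosomal bins. Open bins with H3K4me3 in both libraries made up 9.79% and 8.81%, against 0.95% and 1.09%. Bins with neither an ATAC nor an H3K4me3 peak in any library of the lineage made up 38.8% and 30.0%, against 95.2% and 94.8%. Bins open in all libraries of the opposite lineage made up 16.0% of ICM-only and 5.14% of TE-only bins, so some bins were open in both lineages while H3K27ac was called in 1.

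Bins open in 1 lineage were far more often in the H3K27ac class of that lineage than in the opposite class. Of the 8302 bins open in all ICM and no TE library (0.334% of autosomal bins), 43.4% were H3K27ac ICM-only, which is 9.49% of that class. TE-only bins were 5 of the 8302, or 0.060%. Among all autosomal bins 1.53% were ICM-only and 0.447% TE-only. Of the 10449 bins open in all TE and no ICM library (0.42%), 3026 were TE-only, which is 27.2% of that class. ICM-only bins were 150 of the 10449, or 1.44%. This share was near the 1.53% of all autosomal bins. The 0.060% of TE-only bins among the 8302, in contrast, lay below the 0.447% of all autosomal bins. H3K27me3 in both libraries of the opposite lineage and neither of the own was found at 6.84% of TE-only bins, against 1.12% of autosomal bins, and at 3.25% of ICM-only bins, against 1.88%. The reverse arrangement, H3K27me3 in the own lineage alone, was found at 3 TE-only bins (0.027%), against 1.88% of autosomal bins. It was found at 38 ICM-only bins (0.100%), against 1.12%.

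H3K4me3 specific to a lineage fell on the H3K27ac classes in unequal ways. ICM-only bins were 1.53%, TE-only bins 0.447% and shared bins 1.28% of all autosomal bins. Of the 2265 bins with H3K4me3 in both ICM and neither TE library (0.091% of autosomal bins), 49.3% were ICM-only, which is 2.94% of that class, 11.8% were shared and none was TE-only. Of the 7146 bins with H3K4me3 in both TE and neither ICM library (0.287%), 16.5% were TE-only, which is 10.6% of that class, 31.5% were shared and 3.89% were ICM-only. In TE, lineage-specific H3K4me3 thus lay more often on H3K27ac that both lineages carried. The H3K4me3 lists covered 37.7 and 38.5 Mb in ICM and 46.7 and 44.9 Mb in TE, and the part of this gap in the difference was not tested.

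The classes differed in H3K27ac at 8C and MO, and in whole blastocysts. BL libraries hold both ICM and TE cells, so BL is no step between MO and the lineages. How much of each lineage they held is not stated in the labels. ICM-only bins were marked in 19.3% and 18.1% by the 8C libraries, in 55.0% and 52.9% by the MO libraries and in 12.5% and 15.7% by the BL libraries. TE-only bins were marked in 7.59% and 7.19% at 8C, in 26.8% and 23.4% at MO and in 47.1% and 55.7% at BL. In every 8C and MO library the ICM-only share was the higher, and in both BL libraries the TE-only share was. The log2 ratio of ICM-only to TE-only shares was 1.34 ± 0.01 at 8C, 1.11 ± 0.10 at MO and -1.87 ± 0.06 at BL (SD, n = 2 each). Shared bins were marked in 35.9% and 34.4% at 8C, 84.1% and 80.1% at MO and 86.0% and 89.2% at BL. Among all autosomal bins 3.84% to 3.88% were marked at 8C, 4.54% to 4.74% at MO and 1.91% to 2.15% at BL. The BL lists, at 49.0 and 55.1 Mb, were near the TE lists in length, and the MO lists, at 115 and 113 Mb, were longer than the ICM lists. In the lists of ICM and TE cut to one length by score, the ratio was 1.28 at 8C, 0.81 at MO and -1.28 at BL. Leaving out TE replicate 1 moved the BL ratio to -1.10, and leaving out TE replicate 2 moved it to -1.23. The MO ratio came to 0.74 when either ICM replicate was left out.

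**Figure D4:**
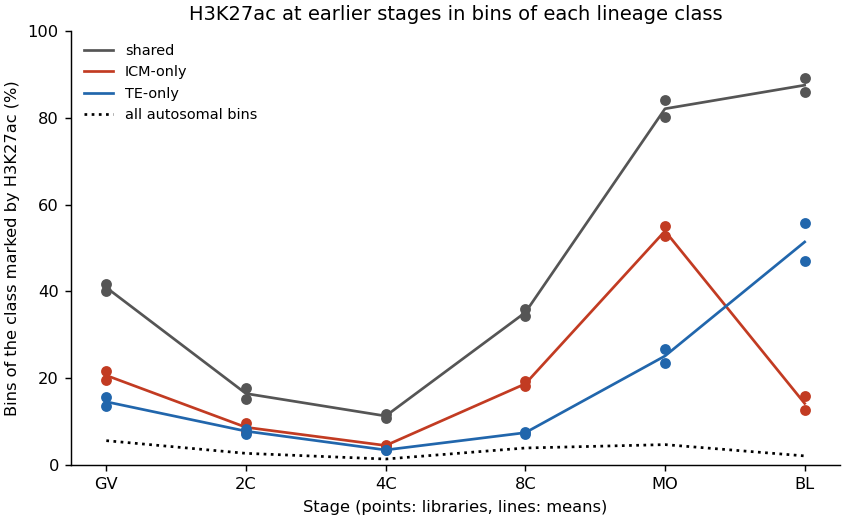
Share of ICM-only, TE-only and shared bins (y axis, %) marked by H3K27ac in GV, 2C, 4C, 8C, MO and BL (x axis). Points are libraries, lines join means and the dotted line is the mean of all autosomal bins; the ICM-only share is 52.9% to 55.0% at MO and 12.5% to 15.7% at BL, where the TE-only share is 47.1% to 55.7%.

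Followed bin by bin, some paths differed between the lineage classes and others did not. No MO or BL library marked 34.5% of ICM-only, 31.8% of TE-only and 3.13% of shared bins (93.8% of autosomal bins). H3K27ac in both MO and neither BL libraries was found at 30.7% of ICM-only, 3.72% of TE-only and 2.85% of shared bins (1.99% of autosomal bins). All ICM-only bins were marked in both ICM libraries, so absence from the BL lists is not loss in the ICM. The opposite path, neither MO and both BL libraries, was found at 0.724% of ICM-only, 23.9% of TE-only and 6.53% of shared bins (0.273%). Both MO and both BL libraries marked 7.22% of ICM-only, 11.9% of TE-only and 68.2% of shared bins (1.23%). No 8C, MO or BL library marked 29.4% of ICM-only, 29.7% of TE-only and 2.67% of shared bins (90.3% of autosomal bins). With GV, 2C and 4C added, no library of these stages marked 22.9% of ICM-only, 24.0% of TE-only and 1.88% of shared bins (84% of autosomal bins). Both MO libraries marked 17019 ICM-only bins, 44.8% of the class, and 2087 TE-only bins, 18.8%, against 3.54% of autosomal bins.

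Before the 8-cell stage the classes were closer together. In GV oocytes, 19.6% and 21.6% of ICM-only, 13.5% and 15.6% of TE-only and 40.1% and 41.7% of shared bins were marked, against 5.05% and 6.05% of all bins. At 2C the shares were 7.55% and 9.72% for ICM-only and 7.15% and 8.33% for TE-only bins. At 4C they were 4.41% and 4.45%, and 3.31% and 3.50%. In each of these 6 libraries the ICM-only share was the higher, with log2 ratios to the TE-only share of 0.54 and 0.47 in GV, 0.08 and 0.22 at 2C, and 0.41 and 0.35 at 4C.

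The 8-cell share depended on the type of bin. ICM-only bins with H3K4me3 in both ICM libraries numbered 6439 (1.37% of autosomal bins had H3K4me3 in both), and 43.4% and 40.9% of them were marked by H3K27ac at 8C. For the 7216 ICM-only bins that were open without H3K4me3 these shares were 17.0% and 15.7%, and for the 14737 bins with neither they were 10.9% and 10.3%. At MO the order was another: 68.3% and 64.9% of open bins without H3K4me3 were marked, against 51.4% and 49.9% of the H3K4me3 bins and 47.1% and 46.0% of those with neither. TE-only bins with H3K4me3 in both TE libraries, 1512 in number (1.64% of autosomal bins had it in both), were marked in 17.9% and 16.0% at 8C, in 31.1% and 25.4% at MO and in 64.3% and 70.3% at BL. The 2825 TE-only bins open without H3K4me3 were marked in 7.01% and 7.22% at 8C, 31.0% and 27.2% at MO, and 55.8% and 66.0% at BL. At MO they thus lay close to the TE-only bins with H3K4me3, unlike in the ICM-only class. The 3337 TE-only bins with neither ATAC nor H3K4me3 were marked in 31.1% and 38.9% at BL. Shares for bins of these types outside the 2 lineage classes were not taken.

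H3K27me3 and H3K4me3 at the morula differed between bins with and without H3K27ac there, in each class. The 7627 TE-only bins in neither MO list (as were 94.3% of autosomal bins) carried H3K27me3 at MO in 9.83% and 10.7% of cases, above the 6.00% to 6.55% of all autosomal bins. The 2087 TE-only bins in both MO lists carried it in 3.59% and 3.83%. In the ICM libraries the 2 sets were alike in H3K27me3, at 10.2% to 10.5% and 9.25% to 10.3%. Among ICM-only bins, H3K27me3 at MO was found in 5.03% and 5.43% of the 14043 bins in neither MO list and in 1.32% and 1.59% of the 17019 bins in both. Shared bins were split likewise, at 7.04% and 7.85% of the 3834 bins in neither list and 1.39% and 1.53% of the 24351 in both. H3K4me3 at MO marked 19.4% and 22.3% of ICM-only and 4.08% and 5.14% of TE-only bins. By MO status it marked 23.9% and 27.5% of ICM-only bins in both MO lists, against 14.6% and 17.0% in neither. For TE-only bins these shares were 10.1% and 13.5%, against 2.40% and 2.79%, and for shared bins 58.7% and 62.5%, against 25.4% and 28.1%.

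The longest runs show these patterns at single places; they were picked by H3K27ac, so their H3K27ac cover is given as a description. The longest ICM-only run, 24 kb at chr6:69709001-69733000, was covered by H3K27ac peaks for 97.5% and 98.8% in ICM and for 0 and 2.71% in TE. H3K27me3 covered 73.3% and 85.0% of it in the TE libraries, 51.7% and 54.2% in BL and none in ICM or MO. ATAC peaks covered 52.9% to 55.6% in ICM and 34.4% to 36.9% in TE, and H3K4me3 45.6% and 49.2% in ICM and 17.9% and 19.8% in TE. In TE the run thus held both ATAC peaks and H3K27me3. H3K27ac covered 18.5% and 25.6% of the run in GV, 25.2% and 20.0% at 2C, and 27.5% and 27.1% at 4C. It covered 71.7% and 77.5% at 8C, and 72.9% and 76.7% at MO.

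The other long ICM-only runs carried no H3K27me3 in ICM, TE, BL or MO. The run of 18 kb at chr5:26532001-26550000 was open in both lineages, with ATAC cover of 51.1% to 53.6% in ICM and 42.8% to 53.9% in TE. Runs of 17 kb at chr12:69646001-69663000 and chr12:69688001-69705000 were open in ICM, at 46.2% to 55.3% and 40.0% to 53.5%, and closed or nearly closed in TE, at 0 and at most 3.53%. Neither had H3K27ac at 8C, and at MO the first was covered for 29.4% and 33.5% and the second for 78.2% and 82.9%. They lie in chr12:69625001-69725000, the 100 kb window with the most ICM-only bins, which held 81 of them and no shared or TE-only bin. The run of 16 kb at chr1:74536001-74552000 lies in the next densest window, chr1:74491001-74591000, with 58 ICM-only bins. It had no H3K4me3 in any ICM, TE, BL or MO library.

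**Figure D5:**
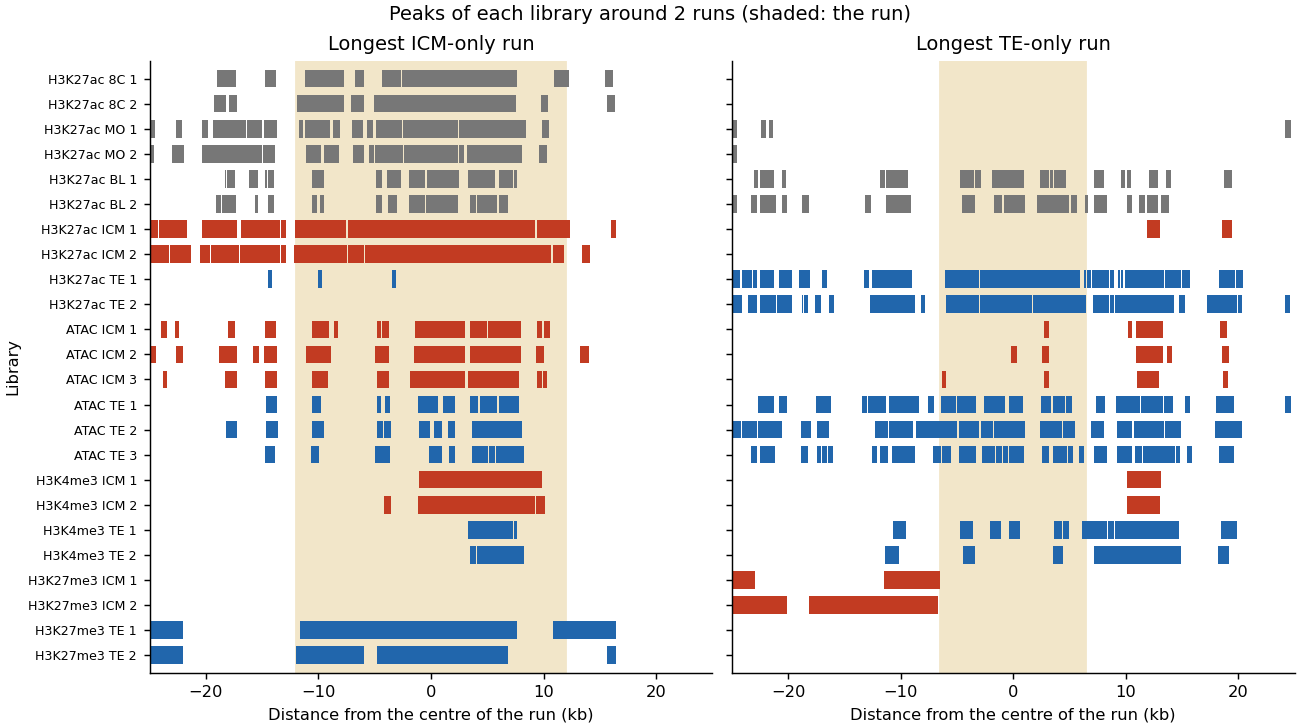
Peaks of each library (y axis) around the centres of the longest ICM-only and TE-only runs (x axis, kb), with the run shaded. H3K27me3 lies over 73.3% and 85.0% of the ICM-only run in TE and none of it in ICM, and MO has no H3K27ac peak within the TE-only run while BL covers 50.8% and 56.2%.

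H3K27ac cover at MO differed among the 5 longest TE-only runs, and some had none there. The longest, 13 kb at chr19:49621001-49634000, had no H3K27ac at 4C, 8C or MO, and BL covered 50.8% and 56.2% of it. ATAC covered 66.9% to 78.5% of it in TE and 3.46% to 8.46% in ICM, and H3K4me3 15.8% and 36.5% in TE and none in ICM. The run of 12 kb at chr21:26651001-26663000 was covered by H3K27ac for 30.4% and 44.6% at MO and for 82.9% and 83.3% at BL. The 11 kb run at chr14:62879001-62890000 had the highest H3K27ac cover at 8C of the 5 TE-only runs, 49.1% and 55.9%, with H3K27me3 over 29.1% and 30.9% in ICM and none in TE. The 11 kb run at chr21:57206001-57217000 had no H3K4me3 in ICM or MO and 34.5% and 39.1% in TE. The 10 kb run at chr1:126442001-126452000 was covered by H3K27ac for 65.5% and 67.0% in GV oocytes, for none at MO and for 75.5% and 79.0% at BL, with H3K4me3 over 58.5% and 66.5% in TE and none in ICM.

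The densest TE-only windows were chr6:45138001-45238000, with 38 TE-only bins, and chr5:26953001-27053000, with 37. In the first, H3K27me3 covered 24.8% and 25.4% in ICM and none in TE. The second also held 17 shared bins and 1 ICM-only bin. The longest shared runs, 34 kb at chr19:39452001-39486000, 31 kb at chr13:42819001-42850000 and 27 kb at chr25:3744001-3771000, carried no H3K27me3 in ICM, TE, BL or MO. Of these, the run on chromosome 13 had no H3K27ac in GV, 2C, 4C or 8C libraries and was covered for 56.9% and 66.0% at MO.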

How the data were processed

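The values analysed are the peak lists the authors deposited, 1 per library, with a whole-number score per peak whose meaning the deposited lists do not give. The submitters' processing notes name the caller SICER, the aligner BWA 0.7.9a, Trim Galore 0.4.0 with cutadapt 1.8.3, SAMtools 1.9, Picard 2.26.10 and the assembly ARS-UCD1.2. The lists are named for epic2, so the caller was not settled. For the cutoff, the control library and duplicates, nothing is stated in the sources used here. The authors' score was used only to rank peaks within a list and for the depth stand-in. Peak edges lay on a 50 bp grid, or a 200 bp grid for H3K27me3 and H3K9me3, so widths are not compared between these sets.

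Peaks on the 29 autosomes were laid on 1 kb bins, marked at 50% cover or more, with Python 3.11.15, NumPy 2.4.6, pandas 2.3.3 and Matplotlib 3.10.9. Of the 81 libraries 47 were used. Classes came from the 4 H3K27ac lists of ICM and TE alone. For each other library, the log2 ratio of the marked share of ICM-only to that of TE-only bins was taken, and its difference between ICM and TE libraries was compared with all arrangements of the labels (exact permutation, two-sided), with Benjamini-Hochberg adjustment over 6 tests. The code was run on simulated data of 400000 bins, in which replicates were identical and peaks filled whole bins. Recovery of the planted classes was thus fixed in advance and tells nothing about noise between libraries or partial cover. Named places are the 5 longest runs of each lineage class, the 3 longest shared runs and the 2 densest 100 kb windows of each lineage. Alternatives changed the cover threshold, bin size, class rule, chromosomes, list length, distances, the statistic and the libraries used. The classes, measures and lists were chosen with earlier results of these data known.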

Additional observations from a re-analysis of the deposited data

Results flagged for a closer look

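The BL libraries differed from those of MO and 8C in which lineage class carried more H3K27ac. BL libraries are of whole blastocysts, so they hold both ICM and TE cells. At MO the log2 ratio of the marked share of ICM-only bins to that of TE-only bins was 1.11, and at BL it was -1.87, with both MO libraries above 0 and both BL libraries below 0. At 8C it was 1.34, again positive in both libraries, against the -1.87 of BL. The difference between stages was not tested. Among 8C, MO and BL, list length moved with it: MO and 8C lists covered 89.7 to 115 Mb, and BL lists 49.0 and 55.1 Mb. The 4C lists covered 43.4 and 44.0 Mb, with ratios of 0.41 and 0.35. The 2C lists covered 55.0 and 67.8 Mb, with ratios of 0.08 and 0.22. The part of list length in the difference was not tested.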

How the results depend on the processing

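No alternative reversed the sign of a result, but lists cut by score exchanged the order of ICM-only and TE-only bins in long runs. Counts are given here as Mb of 1 kb bins or of the bins used (37.983 Mb ICM-only and 11.119 Mb TE-only as reported). With any covered base marking a bin, TE-only bins came to 20.1 Mb, the ICM share of separated bins to 72.5%, and the log2 ratio to 1.00 at 8C and -1.61 at BL. With 80% cover, ICM-only bins came to 23.2 Mb and TE-only bins to 6.56 Mb, the share to 78.0% and the 8C ratio to 1.70. Bins of 500 bp gave a share of 75.2%, 1.24 at 8C and -1.68 at BL, and bins of 5 kb gave 79.6%, 1.57 and -2.18. Lists cut to one length by score gave 17.4 Mb ICM-only, 16.9 Mb TE-only, a share of 50.6%, and ratios of 1.28 at 8C, 0.81 at MO and -1.28 at BL, where equal totals bring the share near balance by construction. Cut by score per base they gave 17.4 Mb, 17.1 Mb, 50.5%, 1.30, 0.81 and -1.27. Asking for at least 1 library of a lineage and none of the other gave 68.7 Mb ICM-only, 20.5 Mb TE-only, 1.14 at 8C, 0.96 at MO and -1.93 at BL. With bins up to 3 kb apart joined, runs of at least 5 bins held 33.9% of ICM-only and 23.2% of TE-only bins. Without joining, in lists cut by score, such runs held 10.4% and 12.5%. Another bin of the class lay within 5 kb for 75.9% of ICM-only and 70.9% of TE-only bins, and within 10 kb in lists cut by score for 80.5% and 79.1%. The causes of the other shifts were not tested.

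Leaving out 1 H3K27ac library in turn gave 42.4 to 56.1 Mb ICM-only, 12.7 to 16.6 Mb TE-only, a share of 71.9% to 81.5%, and ratios of 1.04 to 1.41 at 8C, 0.74 to 1.28 at MO and -2.34 to -1.10 at BL. Runs of at least 5 kb then held 11.6% to 12.5% of ICM-only and 8.27% to 9.44% of TE-only bins, and another bin of the class lay within 10 kb for 83.8% to 85.1% and 76.1% to 77.2%. Without 1 library, of H3K27ac or of the assay tested, the summed log2 difference of ATAC and H3K4me3 was 5.20 to 6.44 (exact permutation p = 0.0167 in each), and that of the repressive marks -5.28 to -4.44 (exact permutation p 0.0556 to 0.111).

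The ICM and TE libraries share replicate numbers. Deviations of same-numbered libraries from their group means were hardly correlated (0.0007 for H3K27ac, at most 0.0199 for any assay). With so few libraries these values cannot settle whether same-numbered libraries shared embryos or a batch, and the labels do not say. With labels exchanged only within a replicate block, the values stayed at 6.33 and -5.16, with exact permutation p of 0.0625 and 0.125 (0.375 adjusted for both). Each is the smallest p that this exchange allows, so the rise in p comes from the fewer arrangements. As differences in percentage points the sums were 80.2 and -13.5. Sequencing depth was unknown, so list length, depth and extent of the mark cannot be told apart, and a bin outside a list may hold signal below the authors' cutoff.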

Other observations

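Chromosome 24 had the lowest ICM share of separated bins, and chromosomes 27, 20 and 16 the next lowest, at 69.7%, 70.1% and 70.1%. The highest shares after chromosome 7 were on chromosomes 18, 14 and 1, at 82.4%, 80.6% and 80.5%. No test was made of these differences between chromosomes.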
